A study of Mus musculus with 3 samples.

Results

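The genes described here are 57 members of the Wnt pathway, chosen by their symbols as ligands, receptors, co-receptors, inhibitors, R-spondins with their receptors, Tcf/Lef factors and feedback genes. Of these, 56 were measured, among 22180 genes that had a row with a single gene symbol. Where several rows carried the same symbol, the brightest by its mean over the 3 arrays was taken. Tcf7 was not analysed here.

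Wnt proteins are secreted, lipid-modified ligands that bind Frizzled receptors together with the co-receptors Lrp5 and Lrp6. The signal keeps β-catenin (Ctnnb1) from being degraded, and β-catenin then acts with the Tcf/Lef factors on target genes. Some of these targets, such as Axin2, Nkd1, Nkd2, Rnf43 and Znrf3, feed back on the pathway. Secreted inhibitors of the Dkk and Sfrp families hold the ligands or Lrp5 and Lrp6 back, R-spondins and their Lgr receptors strengthen the signal, and the receptors Ror1 and Ror2 carry signals of Wnt5a that do not need β-catenin. In the developing forebrain the pathway acts on the growth of progenitors, on regional identity and on axon growth.

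Total RNA was profiled on 3 Affymetrix Mouse Gene 2.0 ST arrays, 1 each for Q7-Control, Q111-Control and Q111-ASOs. STHdhQ7/Q7 and STHdhQ111/Q111 cells are immortalized striatal lines from knock-in mice (labelled strain C57BL6/J) whose humanized Htt exon 1 encodes 7 or 111 glutamine repeats, and each genotype is represented by 1 line. Q7-Control and Q111-Control received a non-specific control morpholino, and Q111-ASOs received morpholino antisense oligos I2E3 and E3I3, 3 μM of each, which induce skipping of Rest exon 3 (∆E3). All cells were grown at 33°C in medium with 10% serum and G418, were given 6 μM Endo-Porter for delivery, and were harvested after 48 h. The study compared the lines and asked whether the ASOs altered expression in the Q111 line. With 1 array per condition there is no spread between replicates and no p-value is given, and a difference cannot be told apart from one between single cultures. With 1 line per genotype, an effect of the glutamine repeat cannot be told apart from other differences between the lines. Both Q111 arrays come from the same line, so a value of Q7-Control was also set against each of them, and the comparisons share arrays and therefore their error. A lower signal in such bulk RNA does not separate fewer expressing cells from less RNA per cell.

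The targeted gene Rest gave 9.16 on both control arrays and 9.33 in Q111-ASOs, and a signal over the whole gene does not measure skipping of an exon. Signals are log2 values, and the medians over genes were 6.54 (Q7-Control) against 6.51 (Q111-Control) and 6.52 (Q111-ASOs). As a guide to dim signals, 1405 olfactory, vomeronasal and trace amine receptor genes, which these cells are not known to use, had a 95th percentile between 5.73 and 5.80 and a 99th percentile between 6.50 and 6.62 on the 3 arrays. The background of a probe depends on its sequence, so these levels are no detection limits for a single gene. Of the 56 Wnt pathway genes, 48 were above the 95th percentile on all arrays and 6 on none, and 32 were above the 99th percentile on all arrays. Of the markers of mature striatal neurons, Drd1 and Drd2 were under these levels, each with the same value on all arrays (log2 4.04 and 5.02), and Bcl11b (5.77) was at their lower edge. Of the other striatal lineage genes, Foxp2 (5.17 to 5.18) was under these levels and Gsx2 (6.50 to 6.57) at their upper edge, while Dlx5 (6.60 to 7.58), Dlx2 (8.71 to 9.14), Ebf1 (9.06 to 10.65) and Foxp1 (10.61 to 11.11) were above them. Of 9 measured striatal lineage markers, 1 (Ebf1) lay past 2-fold, on the Q111 side. Beside these marker counts, 2.53% of all genes lay past 2-fold on the Q7 side of Q111-Control and 2.03% on the Q111 side. Of 10 neural progenitor markers, 6 lay past 2-fold on the Q7 side, from Msi1 (2.01-fold) to Sox2 (20.7-fold). On the Q111 side lay 1, Sox9 (2.66-fold). The summed linear signals of the 10 markers were 20088 (Q7-Control) against 16616 (Q111-Control) and 16578 (Q111-ASOs). Vim, with the same value on all arrays, made up most of each sum, and without it the sums were 5999.6, 2527.8 and 2489.6. Of 9 fibroblast or mural markers, 2 (Col1a2 and Col3a1) lay past 2-fold on the Q111 side and 1 (Acta2) on the Q7 side, and the summed signals were 13611, 14565 and 15901. Among 7 neuron markers Tubb3 lay past 2-fold on the Q7 side, and Slc1a3 of 5 astrocyte markers and Pdgfra of 5 markers of the oligodendrocyte lineage did so on the Q111 side. Endothelial (4) and microglial (5) markers held no gene over 2-fold apart between the lines. The part of these markers in the Wnt results was not tested.

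Promoters are shown for 3 members for which the RefSeq promoter table held a sequence. They include Wnt16, the member with the largest difference between the lines, and the inhibitor gene Dkk2 on the opposite side. Also shown is the β-catenin partner gene Lef1, which lay within 2-fold between the lines. Each window runs from 250 bases before to 50 bases after a start site (RefSeq, GRCm38.p6), and capitals mark CTTTGA, the core that Tcf/Lef factors bind, and TATAAA, the TATA core, in either orientation.
Wnt16, chr6:22287977-22288276 (+): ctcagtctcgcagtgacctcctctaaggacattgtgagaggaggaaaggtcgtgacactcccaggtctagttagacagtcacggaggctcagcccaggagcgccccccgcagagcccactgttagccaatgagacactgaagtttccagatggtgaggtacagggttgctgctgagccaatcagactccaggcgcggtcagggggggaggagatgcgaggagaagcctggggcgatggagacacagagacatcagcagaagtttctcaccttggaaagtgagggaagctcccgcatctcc
Dkk2, chr3:132085042-132085341 (+): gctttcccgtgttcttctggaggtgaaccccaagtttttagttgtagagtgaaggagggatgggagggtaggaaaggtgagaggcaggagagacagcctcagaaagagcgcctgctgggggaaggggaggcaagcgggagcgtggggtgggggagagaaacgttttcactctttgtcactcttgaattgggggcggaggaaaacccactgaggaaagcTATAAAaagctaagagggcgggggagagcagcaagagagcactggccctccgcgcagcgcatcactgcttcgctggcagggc
Lef1, chr3:131156044-131156343 (+): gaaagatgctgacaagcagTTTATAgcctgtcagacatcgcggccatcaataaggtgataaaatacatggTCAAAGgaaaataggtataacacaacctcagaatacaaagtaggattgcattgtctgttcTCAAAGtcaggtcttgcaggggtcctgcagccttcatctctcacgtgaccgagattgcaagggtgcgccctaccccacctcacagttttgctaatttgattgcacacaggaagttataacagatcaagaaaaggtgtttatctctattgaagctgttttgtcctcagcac

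The Wnt16 window held neither core. That of Dkk2 held TATAAA 32 bases before its start site and no CTTTGA. The Lef1 window, 1 of 4 listed for this gene, held CTTTGA 2 times, both as TCAAAG. It was chosen for having most matches, and the other Lef1 windows held neither core. Over all 32851 windows 16.0% held CTTTGA in either orientation, and of 47 windows of 38 Wnt pathway genes 7 did (14.9%). The longer CTTTGAT, which contains the core, was in 3.73% of all windows and in 2 of the 47, and TATAAA was in 13.6% and in 8. These matches describe the letters and are not binding sites.

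Between the lines, the Wnt pathway genes differed in both directions. Set against Q111-Control, 5 of the 56 had signals more than 2-fold higher in Q7-Control (8.93%), where 2.53% of all genes did, and 6 had signals more than 2-fold lower (10.7%), where 2.03% of all genes did. Among genes above the 95th percentile level on at least 1 array, the same 5 and 6 members were counted out of 50, against 3.87% and 3.1% of 14275 genes. All 11 lay over 2-fold from both Q111 arrays in the same direction, 5 above and 6 below, where 2.12% of all genes were above both and 1.94% below both (3.25% and 2.97% of the 14275). Against Q111-ASOs alone, 5 members lay past 2-fold on the Q7 side and 7 on the other, Ror2 being the addition, where 2.25% and 2.27% of all genes were. Higher in Q7-Control were the inhibitor genes Sfrp1 and Dkk2, Porcn, Fzd3 and Nkd2. Higher in both Q111 arrays were the ligand genes Wnt16 and Wnt10a, the R-spondin genes Rspo2 and Rspo3, the co-receptor gene Lrp6 and the inhibitor gene Sfrp2. A further 4 members were between 1.5-fold and 2-fold higher in Q7-Control and 7 were lower, where 2.66% and 1.85% of all genes were. The median size of the log2 difference was 0.34 for the members and 0.03 for all genes, and the median signed difference was 0.00 for both. Q7-Control and Q111-Control held equal values for 9630 of the 22180 genes and for 14 of the 56 members. Above the 95th percentile level on no array were 7905 genes and 6 members, so the 2 median sizes do not compare genes of like signal.

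**Figure D1:**
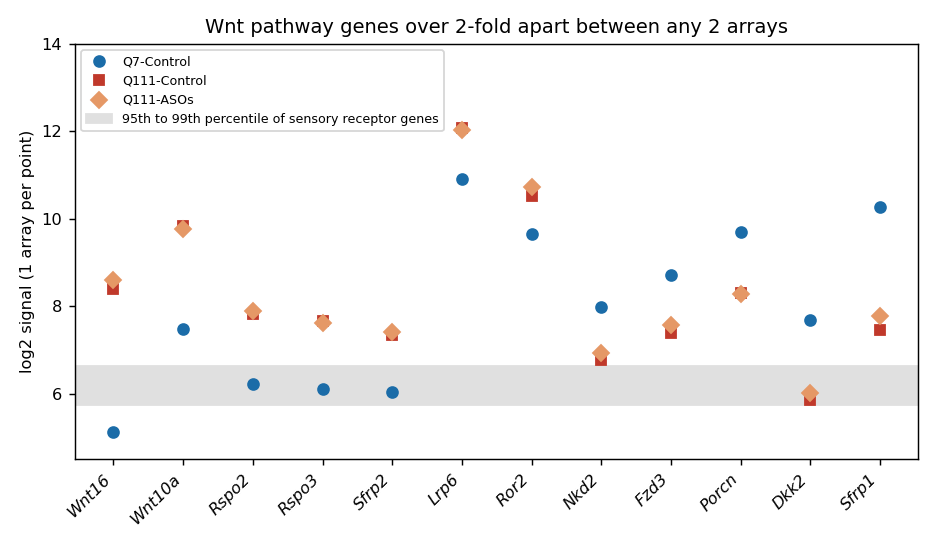
Log2 signal on the Q7-Control (circles), Q111-Control (squares) and Q111-ASOs (diamonds) arrays of the 12 Wnt pathway genes over 2-fold apart between any 2 arrays, ordered by the difference between Q7-Control and Q111-Control, with the range of the 95th to 99th percentile of sensory receptor genes shaded. The 2 Q111 points of each gene lie together, with Q7-Control below them from Wnt16 to Ror2 and above them from Nkd2 to Sfrp1.

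Among the 16 ligand genes, Wnt16 and Wnt10a were over 2-fold higher in the Q111 line and none lay past 2-fold on the Q7 side. Wnt16, a ligand known from bone and skin, gave 5.12 (Q7-Control) against 8.40 (Q111-Control) and 8.59 (Q111-ASOs) on the log2 scale. Its Q7-Control signal was under the 95th percentile of sensory receptor genes. The Q111-Control signal of Wnt16 was 6.08-fold above that level and 9.68-fold above the Q7-Control signal, so the size of this fold is not settled. Wnt10a, known from teeth, hair and skin, had log2 signals of 7.47, 9.84 and 9.77 in the same order, and was 5.17-fold higher in Q111-Control than in Q7-Control. Both genes were thus higher on both Q111 arrays than on the Q7 array, where Wnt10a was still above the 99th percentile of sensory receptor genes. Wnt6, the neighbour of Wnt10a in the genome annotation, had 6.94, 7.59 and 7.72, which was 1.56-fold higher in Q111-Control. Wnt2 had 5.85, 6.64 and 6.19, with the ASOs array between the others, and was 1.73-fold higher in Q111-Control, all within the dim range or at its edge.

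In the opposite direction, Wnt4 had log2 signals of 7.13, 6.28 and 6.24 and was 1.81-fold higher in Q7-Control. Wnt9a had 7.66, 6.86 and 6.86 and was 1.74-fold higher in Q7-Control, while its genome neighbour Wnt3a had 5.97 on every array. The forebrain ligand genes Wnt7a and Wnt7b, named after their values were seen, had log2 differences of 0.38 and 0.21 (Q7-Control minus Q111-Control), with signals from 6.26 to 6.64. Wnt5a, which signals through Ror receptors, had 6.49, 6.90 and 7.01. The remaining ligands, Wnt1, Wnt2b, Wnt3, Wnt5b, Wnt10b and Wnt11, differed by no more than 0.30 on the log2 scale between Q7-Control and Q111-Control. Most ligand signals were dim, with 5 of the 16 above the 99th percentile of sensory receptor genes on all arrays. Porcn, which encodes the enzyme that attaches the lipid to Wnt proteins, gave 9.69 (Q7-Control) against 8.31 (Q111-Control) and 8.28 (Q111-ASOs) on the log2 scale, or 2.60-fold higher in Q7-Control. Thus the ligand genes over 2-fold apart were higher in the Q111 line, and the gene for their lipid modification was higher in Q7-Control.

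**Figure D2:**
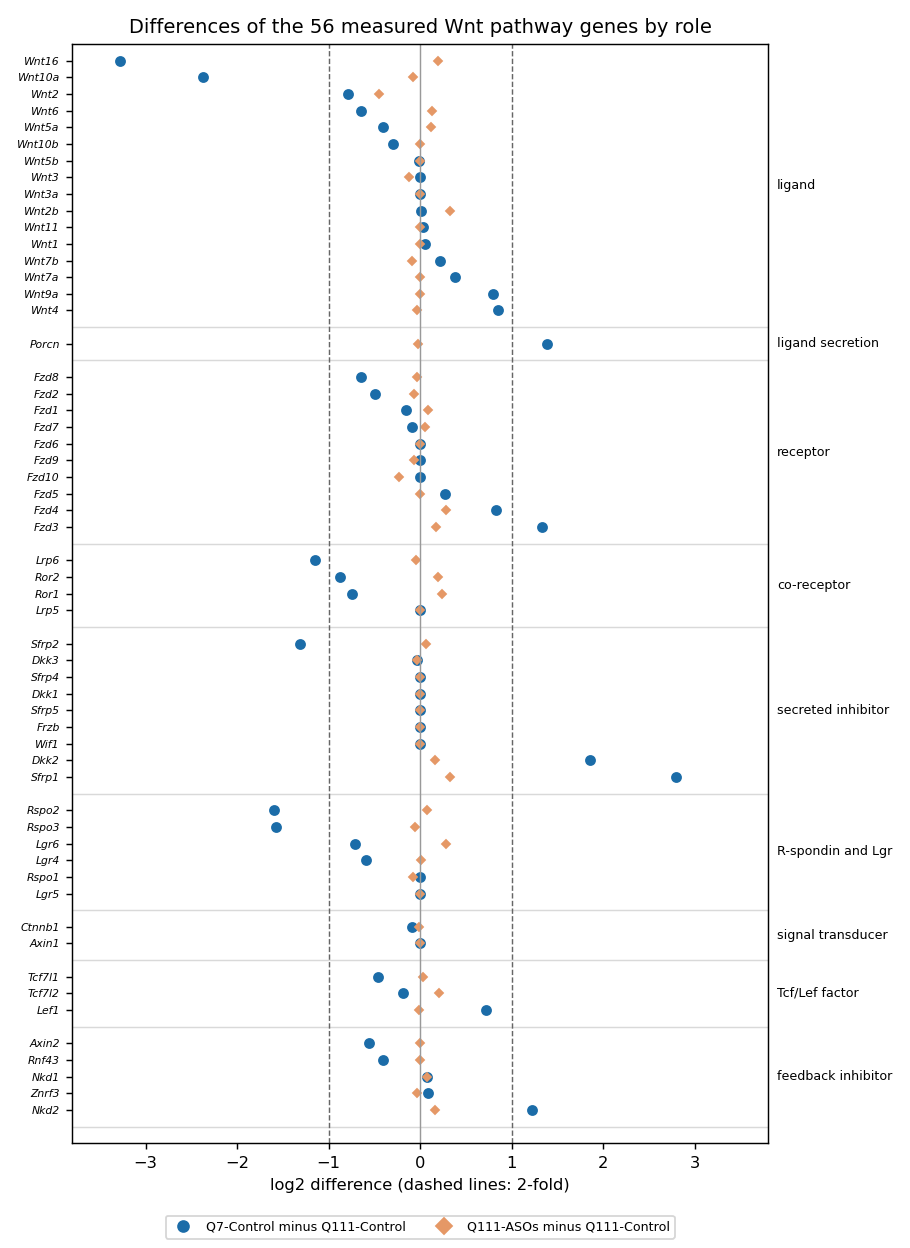
Log2 difference of each of the 56 measured Wnt pathway genes, grouped by role, for Q7-Control minus Q111-Control (circles) and Q111-ASOs minus Q111-Control (diamonds), with dashed lines at 2-fold. Circles reach from -3.28 (Wnt16) to 2.79 (Sfrp1), while all diamonds lie between -0.45 (Wnt2) and 0.32 (Sfrp1).

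Of the 10 Frizzled genes, 1 was over 2-fold apart between the lines. Fzd3, a receptor known for its part in axon guidance and planar cell polarity, gave 8.72 (Q7-Control) against 7.39 (Q111-Control) and 7.56 (Q111-ASOs) on the log2 scale, 2.51-fold higher in Q7-Control. Fzd4, which also binds the non-Wnt ligand norrin, had 8.98, 8.15 and 8.44, or 1.77-fold higher in Q7-Control. Fzd8 had 8.47, 9.11 and 9.08, or 1.56-fold higher in Q111-Control. The receptors thus differed in both directions. Fzd1, Fzd6 and Fzd7 had signals from 10.17 to 10.69 on all arrays and differed by no more than 0.15 between Q7-Control and Q111-Control. Fzd2 was 0.50 lower in Q7-Control on the log2 scale, at 9.77 against 10.27. Fzd5 differed by 0.27, and Fzd9 and Fzd10 had equal values in Q7-Control and Q111-Control, Fzd10 at 4.26.

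No co-receptor gene was higher in Q7-Control, and 3 of the 4 were lower. Set against Q111-Control, 5965 of all 22180 genes were lower in Q7-Control, 9630 equal and 6585 higher. Whether these 4 genes differ from all genes in direction was not tested. Lrp6, which with Frizzled receives the β-catenin signal, gave 10.92 (Q7-Control) against 12.07 (Q111-Control) and 12.02 (Q111-ASOs) on the log2 scale, or 2.22-fold higher in Q111-Control. A second, dimmer row of Lrp6 had 6.99, 7.74 and 7.80, which is 1.68-fold, and with the mean of both rows Lrp6 was within 2-fold (log2 difference -0.95). Its partner Lrp5 had 10.57 on all 3 arrays. Ror2 had 9.66, 10.53 and 10.72, so that Q7-Control was 1.83-fold below Q111-Control and 2.09-fold below Q111-ASOs. Ror1 had 7.46, 8.21 and 8.45, which was 1.68-fold higher in Q111-Control. Lrp6, Ror1 and Ror2 were therefore each higher on both Q111 arrays.

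The secreted inhibitors were divided. Sfrp1, a decoy that binds Wnt proteins, gave 10.26 (Q7-Control) against 7.46 (Q111-Control) and 7.78 (Q111-ASOs) on the log2 scale, so that Q7-Control was 6.94-fold above Q111-Control and 5.55-fold above Q111-ASOs. Dkk2, which binds Lrp5 and Lrp6 and whose promoter is shown above, had 7.69, 5.84 and 6.00, or 3.61-fold higher in Q7-Control. Both Q111 signals of Dkk2 were under the 99th percentile of sensory receptor genes. Sfrp2, a second member of the Sfrp1 family, went the other way, with 6.03, 7.34 and 7.40, or 2.49-fold higher in Q111-Control, its Q7-Control signal being in the dim range. Its other row had 5.69, 5.93 and 5.93, and with the mean of both rows Sfrp2 was within 2-fold (log2 difference -0.78). Dkk1, Sfrp4, Sfrp5, Frzb and Wif1 had exactly the same value on all 3 arrays, from 4.33 to 6.29, and Dkk3 differed by 0.04. Summed over the 9 genes, the linear signals were 1856 (Q7-Control) against 758.1 (Q111-Control) and 812.9 (Q111-ASOs), a sum in which Sfrp1 weighs most in Q7-Control.

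R-spondins are secreted proteins that bind Lgr4, Lgr5 and Lgr6 and remove the ubiquitin ligases Rnf43 and Znrf3 from Frizzled receptors. Rspo2 gave 6.23 (Q7-Control) against 7.82 (Q111-Control) and 7.89 (Q111-ASOs) on the log2 scale, or 3.01-fold higher in Q111-Control. Rspo3 had 6.10, 7.67 and 7.61, or 2.97-fold higher in Q111-Control. The Q7-Control signals of both were under the 99th percentile of sensory receptor genes, so the size of these folds is not settled. Their receptor gene Lgr4 had 9.54, 10.12 and 10.13, and Lgr6 had 6.83, 7.54 and 7.83, which is -0.59 and -0.71 as Q7-Control minus Q111-Control. In Q7-Control none of the 6 genes exceeded its Q111-Control signal, as Rspo1 (7.31) was equal on both arrays and Lgr5 (5.71) on all 3. Most genes did not exceed it either: of all 22180, Q7-Control gave the larger signal for 6585, the smaller for 5965 and the same for 9630. Rspo1 did exceed its Q111-ASOs signal (7.23). The summed linear signals of the group were 1210 (Q7-Control) against 1942 (Q111-Control) and 1982 (Q111-ASOs).

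Of the β-catenin transducers and Tcf/Lef genes among the members, 5 were measured. Ctnnb1, the gene for β-catenin, gave 11.96 (Q7-Control) against 12.04 (Q111-Control) and 12.03 (Q111-ASOs) on the log2 scale, and Axin1, the scaffold of the complex that marks β-catenin for degradation, had 9.78 on all 3 arrays. Of the Tcf/Lef genes, Lef1 had 7.56, 6.84 and 6.82, or 1.65-fold higher in Q7-Control, whereas Tcf7l1 (9.80, 10.26 and 10.29) and Tcf7l2 (9.18, 9.36 and 9.56) were lower in Q7-Control by 0.46 and 0.18 on the log2 scale. None of these 5 genes was over 2-fold apart. RNA signals do not show the amount or place of β-catenin protein.

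The 5 feedback genes gave no common direction. Nkd2, which binds Dishevelled and limits the signal, gave 7.99 (Q7-Control) against 6.77 (Q111-Control) and 6.92 (Q111-ASOs) on the log2 scale, or 2.33-fold higher in Q7-Control. Axin2, widely used as a readout of β-catenin activity, had 6.57, 7.13 and 7.13, a log2 difference of -0.56, and its second row differed by -0.01. Rnf43 had 6.74, 7.15 and 7.15, lower in Q7-Control like Axin2. Znrf3 had 9.34, 9.25 and 9.21, and Nkd1 had 5.35, 5.27 and 5.35, under the level of sensory receptor genes on each array. One gene of the group was therefore over 2-fold higher in Q7-Control, and the others lay within 2-fold on either side.

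In the Q111 line, 0 of the 56 members lay past 2-fold upward with the ASOs (0.104% of all genes did) and 0 downward (0.0271% of all genes did). Of the 50 members above the 95th percentile level on at least 1 array the counts were likewise 0, against 0.161% and 0.014% of such genes. At 1.5-fold the members counted were also 0 in each direction, where 0.455% of all genes were higher and 0.153% lower, shares at which fewer than 1 member in 56 would be counted. Signals were higher with ASOs for 20 members, lower for 19 and equal for 17. Over all 22180 genes, 6154 were higher, 5061 lower and 10965 equal. The largest difference among the members was that of Wnt2, which had log2 signals of 6.64 in Q111-Control and 6.19 in Q111-ASOs, 1.36-fold lower with ASOs. Sfrp1 was 1.25-fold higher with ASOs (7.46 and 7.78), and Wnt2b, named after its value was seen, differed by 0.32 on the log2 scale (6.28 and 6.61). Fzd4 and Lgr6 were each 1.22-fold higher and Ror1 was 1.18-fold higher. These values stand beside an SD over all genes of 0.13 for the same pair of arrays. That SD includes 10965 of 22180 genes with equal values on the pair, and it is not a spread between replicates. Among the 11 members over 2-fold apart between the lines, the log2 difference with ASOs was largest for Sfrp1 and lay between -0.08 (Wnt10a) and 0.19 (Wnt16) for the other 10.

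**Figure D3:**
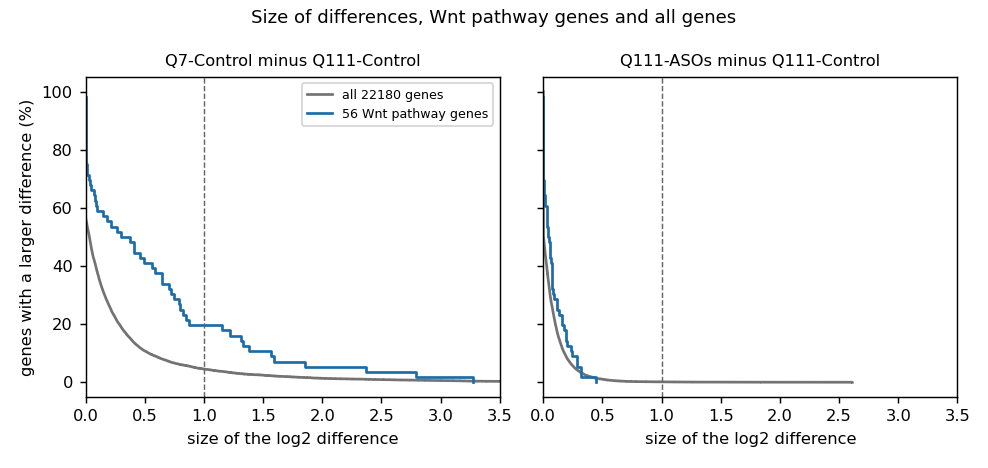
Share of genes (y axis, percent) whose log2 difference is larger than the size on the x axis, for the 56 Wnt pathway genes and all 22180 genes, between Q7-Control and Q111-Control on one panel and Q111-ASOs and Q111-Control on the other, with a dashed line at 2-fold. At 2-fold the line of the Wnt pathway genes is above that of all genes between the lines, with 5 members higher and 6 lower, and no member reaches 2-fold with ASOs.

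Further genes of the pathway were read from 6 lists chosen for their role, with 109 of 117 listed symbols measured (Aes is an older symbol of Tle5). Between the lines, 10 of the 109 lay past 2-fold on the Q7 side, where 2.53% of all genes did, and 5 on the Q111 side, where 2.03% did. With ASOs 0 of them were over 2-fold apart from Q111-Control in either direction. The median log2 difference between the lines was 0.00. The ASOs differences of this wider set lay between -0.28 and 0.54.

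Among 18 further receptors and planar cell polarity genes, 4 lay past 2-fold on the Q7 side and 0 on the Q111 side. The shares of all genes were 2.53% and 2.03%. Celsr2, a cadherin of planar polarity, gave 8.67 (Q7-Control) against 6.51 (Q111-Control) and 6.35 (Q111-ASOs) on the log2 scale, or 4.49-fold higher in Q7-Control, and its relative Celsr1 had 7.73, 6.61 and 6.47, or 2.17-fold. The Q111 signals of both were under the 99th percentile of sensory receptor genes, so the size of these folds is not settled. Daam1, a formin that links Dishevelled to actin, had 10.16, 8.55 and 8.71 (3.07-fold), and Adgra2, a partner of Reck in Wnt7 signalling, had 10.22, 8.65 and 8.62 (2.97-fold). Each of these genes was higher on the Q7 array than on both Q111 arrays. Of 10 further ligand, glypican and secretion genes, the glypican gene Gpc6 was 2.08-fold higher in Q7-Control, and Wls, which carries Wnt proteins to the cell surface, had a log2 difference of -0.55. Among 22 cytoplasmic transducers, which include the Dishevelled genes and Gsk3b, none was over 2-fold apart and the differences lay between -0.43 and 0.50. Of 12 further inhibitors none was over 2-fold apart between Q7-Control and Q111-Control, and Igfbp4 gave 8.46 (Q7-Control) against 8.94 (Q111-Control) and 9.47 (Q111-ASOs) on the log2 scale, the widest ASOs difference of the 6 lists.

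Nuclear partners of β-catenin were more often higher in the Q111 line, with 15 of 18 lower in Q7-Control than in Q111-Control, 2 higher and 1 equal, and a median log2 difference of -0.25. The 15 include Tle5 (-0.004) and Ctbp1 (-0.0014), whose differences are smaller than the shift made by centring the arrays. Over all genes 5965 were lower, 6585 higher and 9630 equal in Q7-Control, with a median of 0.00. All 18 partners, but 10527 of the 22180 genes, were above the 99th percentile level on all arrays, so these counts do not compare genes of like signal. Tle1, a Groucho corepressor, was the 1 gene over 2-fold apart, with 7.15 (Q7-Control) against 8.20 (Q111-Control) and 8.29 (Q111-ASOs). Of 29 measured genes listed as β-catenin targets, 5 were over 2-fold higher and 4 over 2-fold lower in Q7-Control. Ccnd1, which encodes cyclin D1, had 11.88, 9.15 and 9.27, or 6.62-fold higher in Q7-Control, and the tight junction gene Cldn1 had 9.36, 6.75 and 7.06 (6.08-fold). Ccn5, a matricellular gene, had 7.85, 10.98 and 11.15, or 8.79-fold higher in Q111-Control, and the receptor gene Tnfrsf19 had 7.50, 9.28 and 9.09 (3.44-fold). These target genes answer to many signals, and like the feedback genes they lay on both sides. Ptgs2, Vegfa and Tbx3 were 3.33-fold, 3.21-fold and 2.34-fold higher in Q7-Control, and Mmp2 and Snai2 were 2.82-fold and 2.67-fold higher in Q111-Control. Ccn4 was within 2-fold of Q111-Control but 2.08-fold above Q111-ASOs in Q7-Control.

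**Figure D4:**
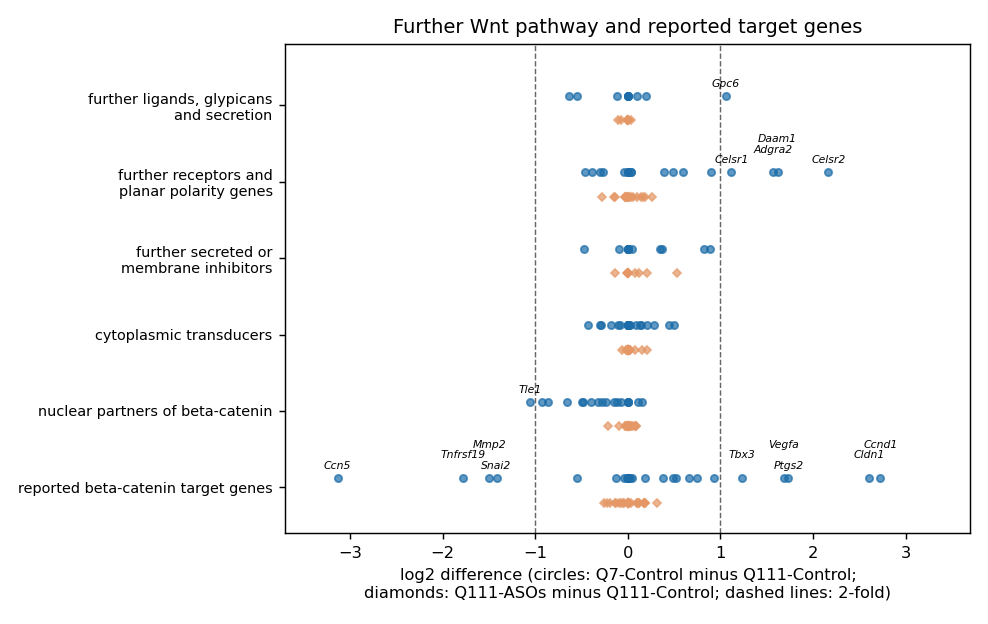
Log2 differences of the 109 further Wnt pathway and target genes in 6 lists, for Q7-Control minus Q111-Control (circles) and Q111-ASOs minus Q111-Control (diamonds), with the names of genes over 2-fold apart between Q7-Control and Q111-Control and dashed lines at 2-fold. Circles of receptors and planar polarity genes past 2-fold lie on the Q7 side, those of target genes lie on both sides, and all diamonds lie between -0.28 and 0.54.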

How the data were processed

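For each transcript cluster of the Mouse Gene 2.0 ST array the authors deposited a log2 signal from Partek software, with no version, background correction, normalization or summarization given in the sources used here. The log2 scale was taken from the values, which lie between 2.12 and 14.10, and values were used as deposited. Of 41345 rows, 23521 carry 1 gene symbol in the array annotation, and a RefSeq gene table (GRCm38.p6) gave current symbols for 23328 of them. The other rows have several symbols (1820) or none (16004) and were left unnamed. All 3 arrays held the same value for 35.5% of genes and for 9 of the 56 members, and how this arose was not tested. The number of arrays limits the precision.

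Genes were counted past the 2-fold criterion of the study. The members, lists and tests were chosen with earlier results of these data known. Members over 1.5-fold apart in a main comparison or over 2-fold between any 2 arrays were named, with the highest signals of roles without such a member. Members named beyond that rule were chosen after their values were seen, to complete their role. The TATA core was added after the sequences were seen. Counting was tested on simulated data. Alternatives were 2 other scalings, filters on low signals, row means per gene, Q111-ASOs as the Q111 array, and 1.5-fold and 3-fold criteria. Python 3.11.15, numpy 2.4.6, pandas 2.3.3 and matplotlib 3.10.9 were used.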

Additional observations from a re-analysis of the deposited data

How the results depend on the processing

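Under a 1.5-fold criterion 9 members lay on the Q7 side of Q111-Control and 13 on the Q111 side, and 8 lay above and 12 below both Q111 arrays. Under a 3-fold criterion the same 4 counts came to 2, 3, 2 and 3. The other 48 of 56 alternative counts stayed within 1.5 times, including all counts of 0 with ASOs. Beside the 1.5-fold counts against Q111-Control, 2.53% and 2.03% of all genes lay past 2-fold on the Q7 and Q111 sides. A further 2.66% and 1.85% of all genes lay between 1.5-fold and 2-fold. Shares of all genes past 3-fold, or past 1.5-fold from both Q111 arrays, were not counted. Averaging the rows left 4 members on the Q111 side, without Lrp6 and Sfrp2, and a filter at the median signal left 4 on the Q7 side, without Dkk2. With Q111-ASOs in place of Q111-Control, an alternative chosen after seeing the data like those of the 99th percentile level and of genes with unequal values, the counts were 5 and 7, Ror2 being added. Of 144 log2 differences of named genes, 142 moved by less than 0.13. The sign turned in 0 of those between the lines and in 5 of those with ASOs, for Lrp6, Lgr4, Ctnnb1 and Lef1, each no larger than 0.045 in size before the turn. The 2 that moved further were those between the lines of Lrp6 (-0.95) and Sfrp2 (-0.78) with averaged rows. Centring added 0.06 to every value of Q7-Control minus Q111-Control and 0.04 to those of Q7-Control minus Q111-ASOs. No paired analysis was possible because with 1 array per group no replicates exist to be paired.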
